A study of Solanum tuberosum with 6 samples.

Results

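A set of 96 potato genes had mRNAs that were well represented in total RNA and, relative to that level, nearly absent from RNA of purified mitochondria. The genes were chosen from the counts themselves: each had a mean of at least 10 CPM (the count divided by the library's total and scaled to a total of 1000000) over the total RNA libraries, and its highest level in any mitochondrial library was at most 1/8 of its lowest level in any total RNA library. They are 96 of the 9695 genes that reached the mean of 10 CPM, and of the 15181 genes listed. The share of genes of at least 10 CPM that met the rule was 0.99%. The rule used all 6 libraries, so the difference between the mitochondrial and total RNA of these genes is described here and not tested.

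Both groups came from wild-type Solanum tuberosum. MitoRNA was RNA from purified mitochondria (3 libraries) and TotRNA was total RNA of the cells (3 libraries), and neither carried a treatment or a transgene in the labels. RNA of both kinds was selected on oligo-dT beads, which keep mRNAs with a poly(A) tail; stable mRNAs made inside the organelle lack this tail, so the libraries hold mostly mRNAs of nuclear genes. The sources used here name no tissue, plant age or number of separate preparations, so the spread between libraries may be technical. The MitoRNA libraries held 12799068 to 34776699 counts and the TotRNA libraries 54599781 to 85355383. The libraries numbered 1 differed most from the other libraries of their group across all genes, so results are also given without them where they matter. Every listed gene had 50 counts or more in all 3 TotRNA libraries. None of the 15181 identifiers matched the potato RefSeq gene table, so the proteins that the 96 genes encode, and markers of mitochondrial purity, could not be looked up.

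Most proteins of plant mitochondria are encoded in the nucleus, translated by cytosolic ribosomes and imported through the translocases of the outer and inner membranes. Some of their mRNAs are found at the mitochondrial surface, held there by the growing targeting peptide, by receptors of the import machinery such as TOM20, or by sequences in the untranslated regions of the mRNA. The study's title names upstream AUGs of the leader as one such feature. Other mRNAs are translated on free ribosomes or on the endoplasmic reticulum, and an mRNA that is abundant in the cell and scarce in a mitochondrial preparation marks the low end of the scale on which association is measured.

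The 96 genes took up a small part of the sequenced RNA. They held 0.0151%, 0.0202% and 0.0192% of all counts in MitoRNA replicates 1, 2 and 3, and 0.695%, 0.851% and 0.439% in TotRNA replicates 1, 2 and 3. The mean share was 0.0182% ± 0.00270 in MitoRNA and 0.662% ± 0.208 in TotRNA (SD, n = 3 each). CPM is a share of each library's counts, so amounts per cell or per mitochondrion, and a rarer cell type against less RNA per cell, cannot be told apart. The members' median level was 0.477, 0.625 and 0.647 CPM in MitoRNA replicates 1 to 3, against 20.2, 26.7 and 14.5 CPM in TotRNA replicates 1 to 3. The other 9599 genes of at least 10 CPM had medians of 32.3, 33.3 and 31.9 CPM in MitoRNA and 35.0, 39.2 and 35.3 CPM in TotRNA.

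**Figure D1:**
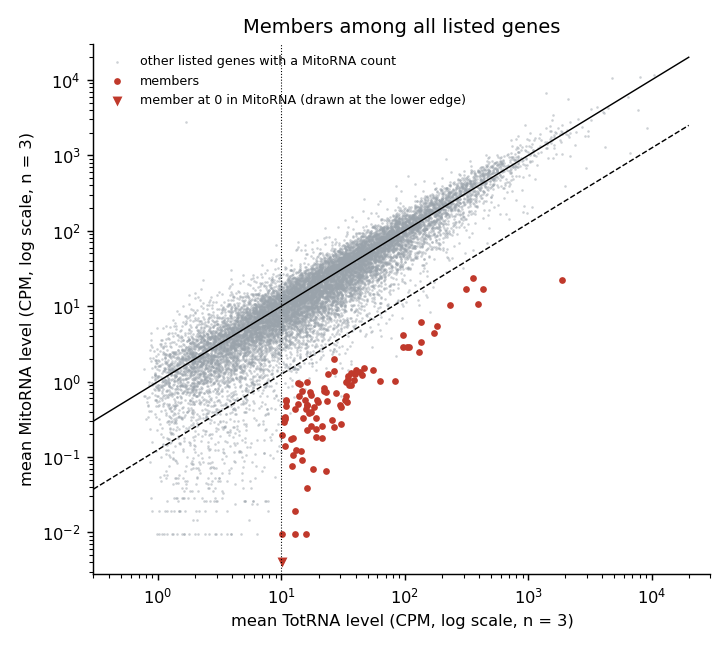
Mean level of each listed gene in MitoRNA (vertical, CPM, log scale) against TotRNA (horizontal, CPM, log scale), with 3 libraries in each mean. The 96 members are red, the solid line marks equal levels, the dashed line 1/8 and the dotted line 10 CPM. Genes under the dashed line that are grey missed the rule in at least 1 library or lay below 10 CPM, and genes without any MitoRNA count other than 1 member are not drawn.

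The members spanned a wide range of abundance, and their mean level ran from 10.2 to 1876 CPM in TotRNA with a median of 21.4. Of the 96, 47 lay at 10 to 20 CPM (1.81% of the 2592 genes at that level), 27 at 20 to 40 CPM (1.06% of 2559), 6 at 40 to 80 CPM (0.298% of 2014) and 16 at 80 CPM and above (0.632% of 2530). The MitoRNA mean as a percentage of the TotRNA mean differed little between these classes, with medians of 2.30%, 2.51%, 2.89% and 2.86% from the lowest class to the highest. Over all members it had quartiles of 1.43% and 3.47% around a median of 2.65%. The other genes of at least 10 CPM had a median of 93.6% (quartiles 63.5% and 123%). The rule sets the same upper bound on this percentage in every class. The closeness of the class medians and their distance from the other genes are therefore not independent of the choice. Whether the percentage depends on abundance cannot be read from them.

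PGSC0003DMG400014487 stood far above the other members in abundance. It had 283, 381 and 849 counts in MitoRNA replicates 1, 2 and 3 (12.3, 29.8 and 24.4 CPM), and 88430, 228778 and 110018 counts in TotRNA replicates 1, 2 and 3 (1620, 2680 and 1328 CPM). All 3 MitoRNA libraries lay below all 3 TotRNA libraries, as the rule requires of every member, and the closest pair of values differed 44.6-fold. This order was seen in 26.5% of all genes of at least 10 CPM. With 22.2 ± 8.96 CPM in MitoRNA and 1876 ± 712 CPM in TotRNA (SD, n = 3 each), the means differed 84.7-fold. It ranked 35 among all listed genes by mean TotRNA level. This gene alone supplied 8.12% to 14.7% of the members' CPM in the MitoRNA libraries and 23.3% to 31.5% in the TotRNA libraries.

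The next most abundant member was PGSC0003DMG400009556. It measured 11.1, 18.6 and 20.9 CPM in MitoRNA and 512, 530 and 243 CPM in TotRNA (replicates 1 to 3). Its means were 16.9 ± 5.11 CPM in MitoRNA and 428 ± 161 CPM in TotRNA (SD, n = 3 each), a 25.4-fold difference. Its groups did not overlap, which the rule also requires, and the narrowest gap was 11.6-fold, because TotRNA replicate 3 was low. The files pair neither identifier with a name, a function or a position, and the other members are given here by rank and by range.

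Members 3 to 8 in abundance had TotRNA means of 173 to 393 CPM. The third had 9.67, 11.7 and 10.8 CPM in MitoRNA, against 411, 499 and 270 CPM in TotRNA (replicates 1 to 3). The fourth was the member with the highest mean in MitoRNA, at 25.8, 24.0 and 21.0 CPM there and at 364, 466 and 240 CPM in TotRNA. These 2 members had MitoRNA levels that were nearly the same in the 3 libraries, while their TotRNA levels differed by almost a factor of 2. The eighth had 5.29, 4.69 and 3.08 CPM in MitoRNA and 319, 122 and 78.7 CPM in TotRNA, so its highest TotRNA value was in replicate 1.

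At the low end, a few counts decided the MitoRNA value. One member had 0 counts in all 3 MitoRNA libraries, out of 70632302 pooled counts, and 536, 1071 and 683 counts in TotRNA replicates 1 to 3 (9.82, 12.5 and 8.24 CPM). By a 1-sided Poisson limit at 95%, a count of 0 allows up to 3 counts over the pooled MitoRNA libraries, or 0.0425 CPM. The TotRNA mean of this member was 240-fold above that bound, which covers counting error only. A further 5 members had 1 to 3 pooled MitoRNA counts and 9 had 4 to 9. The remaining 81 had 10 or more, with 18 at 100 or more, and the median over all 96 was 41 pooled counts. Among those 81, the TotRNA mean was 13.6-fold to 122-fold above the MitoRNA mean, with a median of 34.3-fold. Over all 96, with the gene at 0 set to its bound, the median was 37.7-fold. The largest fold among the 81 belonged to a gene with 0, 2 and 13 counts in MitoRNA and 1214, 2440 and 1128 counts in TotRNA. Its pooled MitoRNA level of 0.212 CPM has an exact 2-sided 95% Poisson interval of 0.119 to 0.350 CPM, which covers counting error only.

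**Figure D2:**
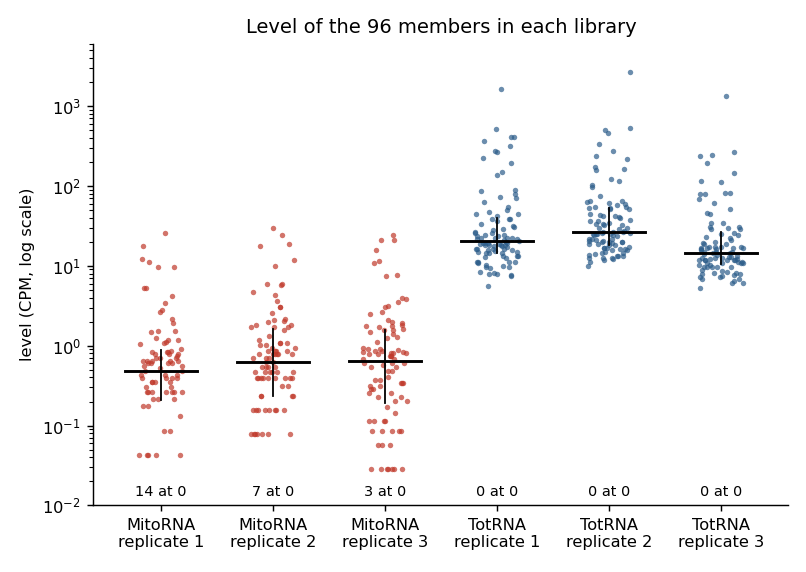
Level of the 96 members (points, CPM, log scale) in each MitoRNA and TotRNA library, with the median (thick line) and quartiles (thin line); members without a count are given as a number under each column. Medians lie between 0.477 and 0.647 CPM in MitoRNA and between 14.5 and 26.7 CPM in TotRNA, and TotRNA replicate 3 is the lowest of its group.

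The threshold cuts a continuous range. The 3 members nearest to it had highest MitoRNA values at 12.3%, 12.3% and 12.5% of the lowest TotRNA value, and the 3 nearest genes outside it stood at 12.5%, 12.5% and 12.6%. A further 100 genes of at least 10 CPM lay between 1/8 and 1/4. Inside the rule, 41 members were at or below 1/16, 19 at or below 1/32 and 9 at or below 1/64. The ratio alone was also met by 292 genes with a mean TotRNA level under 10 CPM, which are not members.

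In the fit over all genes, edgeR called all 96 members lower in MitoRNA. The share called lower over the 15181 listed genes was 13.1%, and among genes of at least 10 CPM it was 12.4%; since the rule used the same contrast, nothing is read from the members' count. The median log2 fold change of MitoRNA over TotRNA was -5.08 for the members (quartiles -5.98 and -4.63), beside 0.01 for all listed genes. The fit gave log2 fold changes of -6.23 for PGSC0003DMG400014487 (SE 0.46, edgeR adjusted p = 0.000645) and -4.49 for PGSC0003DMG400009556 (SE 0.40, edgeR adjusted p = 0.00143). Both genes were chosen by this same contrast, so their adjusted p-values describe the fit and are no test of the difference. In the authors' deposited table the members had a median log2 fold change of -4.51 and ran from -6.93 to -1.91. The edgeR values of the same genes ran from -11.9 to -3.58, so the 2 sets of values are not on one scale, and the cause was not tested. All 96 were lower in the deposited table at an adjusted p below 0.05, where 21.4% of all listed genes were.

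A pair of libraries that took no part in the choice gives values the rule did not fix. When both libraries numbered 1 were set aside, the other 4 libraries chose 115 genes, and 108 of them (93.9%) had a MitoRNA replicate 1 level of at most 1/8 of TotRNA replicate 1. Of all genes of at least 10 CPM in the 4 libraries used, 3.19% met this bound in that pair. With the libraries numbered 2 set aside, 98 of 99 chosen genes (99.0%) met it in the pair left out, beside 2.8% of all such genes. Setting aside the libraries numbered 3 chose 175 genes, of which 120 (68.6%) met it in the pair left out, beside 1.63%. The median of the left-out MitoRNA over TotRNA ratio was 2.14%, 2.48% and 7.37% for the pairs numbered 1, 2 and 3. Its highest value was 28.1%, 27.5% and 442% in the same order. In the pair numbered 3, 173 of the 175 genes were below 100%, so not every chosen gene was lower in MitoRNA there. All 3 pairs placed most chosen genes past the bound, and the pair numbered 3 had the highest median ratio. The pairs follow the numbers in the titles alone, which need not mark samples that belong together. Left-out libraries may also be technical repeats of those used.

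Single libraries could still oppose the rest. Without MitoRNA replicate 1 the rule chose 105 genes, the 96 members and 9 more. In that library 104 of the 105 had less than 50% of their lowest TotRNA level. The full rule already places the 96 members below this level, so only the 9 others inform the count. The share of all genes below 50% was not worked out, so no background stands beside this count. The exception, not a member, had 1350, 1 and 10 counts in MitoRNA replicates 1 to 3 (58.6, 0.0781 and 0.288 CPM) and 1833, 426 and 330 counts in TotRNA replicates 1 to 3 (33.6, 4.99 and 3.98 CPM). It was high in both libraries numbered 1 and was chosen for mention after its values were seen.

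Within TotRNA no member was highest in replicate 3, and 68 of the 96 (70.8%) were lowest there, beside 38.4% of the other genes of at least 10 CPM. Their coefficient of variation over the 3 TotRNA libraries had a median of 38.1%, beside 19.4% for the other genes. TotRNA replicate 2 was the highest of the 3 libraries in 72 members (75.0%) and replicate 1 in 24. The shares highest in replicates 2, 1 and 3 were 43.1%, 27.6% and 29.2% for the other genes. TotRNA replicate 3 was below replicate 2 in 94 of 96 members, with a median log2 ratio of -0.95, beside 60.8% and -0.11 for the other genes. Replicates 1 and 2 had no such uniform order but leaned toward replicate 2. The median log2 ratio of replicate 1 over replicate 2 was -0.36 (quartiles -0.88 and 0.01), beside -0.16 for the other genes. That of replicate 3 over replicate 1 was -0.47 (quartiles -0.96 and 0.01), beside 0.02. TotRNA replicate 1 was at least 2 times replicate 2 in 7 members (7.29%, beside 3.1% of other genes), and replicate 2 was at least 2 times replicate 1 in 20 (20.8%, beside 6.67%). One of the 7, the tenth member in abundance, had 266, 60.9 and 81.3 CPM in TotRNA replicates 1 to 3 and 5.20, 5.86 and 7.48 CPM in MitoRNA, where replicate 1 was the lowest. The rule sets a bound on the lowest TotRNA library, so these values are not independent of it.

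The same order of TotRNA replicates 3 and 2 was seen in genes sorted without either of them. Genes of at least 10 CPM in TotRNA replicate 1 were grouped by the mean MitoRNA level over the level in that library. Where this ratio was at most 1/16 (123 genes, 78 of them members), TotRNA replicate 3 was below replicate 2 in 115 genes, with a median log2 ratio of -0.95 (quartiles -1.14 and -0.63). The median was -0.97 between 1/16 and 1/8 (124 genes), -0.78 between 1/8 and 1/4 (349 genes), -0.49 between 1/4 and 1/2 (1198 genes) and -0.19 between 1/2 and 1 (3316 genes). It reached 0.01 between 1 and 2 (3788 genes) and 0.10 above 2 (602 genes). The medians of the lowest 2 classes were close, and each class above them had a higher median than the one before. In the lowest 2 classes TotRNA replicate 3 was at 0.518 and 0.511 times replicate 2 at the median. The cause of this difference between total RNA libraries was not tested, and each comparison rests on 1 library against 1.

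**Figure D3:**
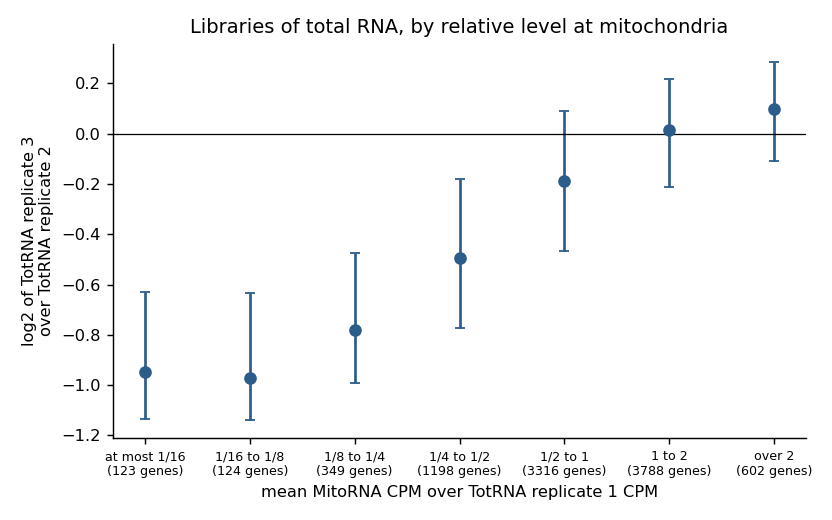
Median log2 ratio of TotRNA replicate 3 over TotRNA replicate 2 (points, with quartiles as bars) for genes grouped by mean MitoRNA CPM over TotRNA replicate 1 CPM. The medians lie near -0.95 in the leftmost classes and near 0.10 in the rightmost, and the libraries compared took no part in forming the classes.

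The other pairs of TotRNA libraries gave smaller differences of the same kind. In classes formed with TotRNA replicate 2, the median log2 ratio of replicate 3 over replicate 1 was -0.40 at a ratio of at most 1/16 (160 genes) and 0.15 between 1 and 2 (3699 genes). In classes formed with TotRNA replicate 3, that of replicate 1 over replicate 2 was -0.66 at a ratio of at most 1/16 (66 genes) and -0.12 between 1 and 2 (4081 genes). Quartiles in the lowest class were wide, -0.92 to 0.18 for replicate 3 over replicate 1 and -1.20 to -0.22 for replicate 1 over replicate 2.

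Within MitoRNA the members had no such uniform order. MitoRNA replicate 1 was the lowest of the 3 in 51 of the 95 members with a count, replicate 3 in 31 and replicate 2 in 13. Ties went to the lower-numbered library, and some of these members had 0 counts in both replicates 1 and 2. The 51 is therefore an upper limit, and so is the members' share for replicate 1 that follows. For the other genes of at least 10 CPM the shares were 44.8%, 39.7% and 15.4%, and for the members 53.7%, 32.6% and 13.7%. Their coefficient of variation had a median of 55.2%, beside 20.8% for the other genes, at far fewer counts. MitoRNA replicate 1 had 14 members at 0, replicate 2 had 7 and replicate 3 had 3, although replicate 2 was the shallowest library. One member had 1, 28 and 62 counts in MitoRNA replicates 1 to 3 (0.0434, 2.19 and 1.78 CPM) and 33.5, 62.5 and 34.3 CPM in TotRNA replicates 1 to 3, so it was lowest in replicate 1 of MitoRNA, while replicates 1 and 3 of TotRNA were close. Across the 96 members, mean MitoRNA and mean TotRNA levels had a Spearman correlation of 0.79. The members share libraries and the rule bounds one level by the other, so this value describes the set.

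The identifiers themselves carry one feature the rule did not use. Each consists of a fixed prefix, 3 digits and a 6-digit number, and some share this number. Of the 96 members, 72 began with 400 and 24 (25.0%) with 401 to 404, whereas 12.2% of all genes of at least 10 CPM began with 401 to 405. Members were 0.846% of genes of at least 10 CPM that began with 400, 1.84% of those with 401 and 2.11% of those with 402. Another listed identifier had the same 6 digits in 19 members (19.8%), beside 8.28% of all genes of at least 10 CPM.

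A total of 22 listed identifiers shared their 6 digits with a member, 2 of which were members themselves, and all 22 had a log2 fold change below 0. edgeR called 19 of the 22 lower in MitoRNA (86.4%), beside 24.5% of the 1349 listed identifiers that share their 6 digits with any other. Among the 20 that were not members, 17 were called lower, their median log2 fold change was -3.15, and the one nearest to 0 stood at -0.79 (not called). The median over all 1349 was -0.38. Of the 22, 13 had a mean TotRNA level under 10 CPM and so could not be members by level, and 5 of these met the ratio. Whether such identifiers are parts of one transcript, overlapping models that share reads or separate genes cannot be told apart here. That fold changes of such identifiers resemble each other was known before this set was chosen, so the count is not independent evidence.

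Identifiers with consecutive numbers lay nearer to the values of all genes. The 50 members that begin with 400 and have a listed neighbour numbered 1 higher or 1 lower had 73 such neighbours, of which 6 were members, forming 3 consecutive pairs. edgeR called 18 of the 73 lower (24.7%), beside 13.1% of all listed genes; the 6 members count among the 18, and 12 of the other 67 (17.9%) were called. Their median log2 fold change was -0.06, and -0.01 for the 67 that were not members. In one pair, the members had 0, 1 and 4 counts and 224, 127 and 396 counts in MitoRNA, against 1329, 2567 and 1217 counts and 15094, 23611 and 12136 counts in TotRNA. Both members of that pair were low in all MitoRNA libraries, as the rule requires, at levels about 10 times apart in TotRNA (23.0 and 233 CPM on average).

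**Figure D4:**
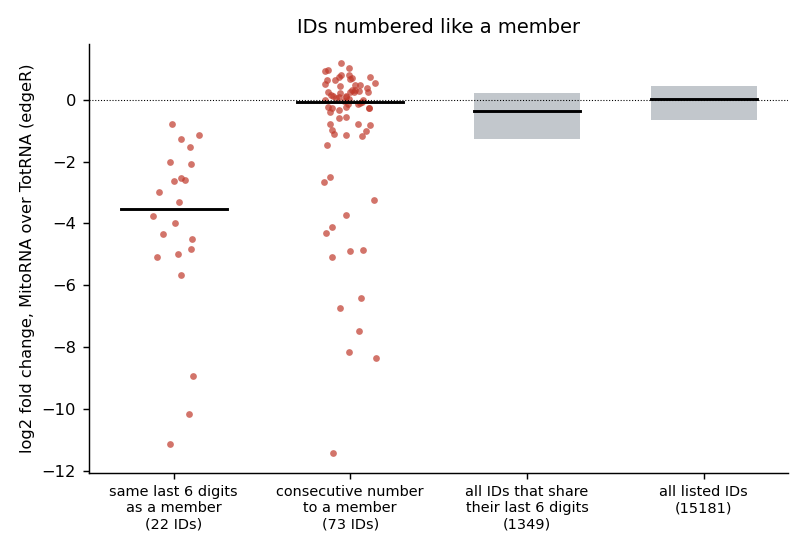
edgeR log2 fold change of MitoRNA over TotRNA for identifiers with the same last 6 digits as a member and for those numbered next to one (points, line at the median), beside the quartiles (boxes) and median of all identifiers that share their last 6 digits and of all listed ones. All 22 in the first column lie below 0 with a median of -3.53, and the 73 in the second have a median of -0.06; values below about -8 rest on 0 or few MitoRNA counts and depend on the fit's prior count.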

How the data were processed

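RNA sequencing libraries of MitoRNA and TotRNA (3 each, groups from the sample titles) were analysed from the deposited tables of whole-number read counts per gene, which the authors did not normalise. The submitters' processing notes list HTSeq 0.5.4p3, Bowtie2 2.1.0, DESeq2, CASAVA 1.8.2 and TopHat2 2.0.8b, with no order; the sources used here name no genome build, annotation or strand setting. The authors' deposited comparison table holds mean normalised counts (a signal), log2 fold changes with standard errors, a Wald score, p-values and adjusted p-values; its log2 fold changes and adjusted p-values were used.

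Membership used CPM by library total. Counts were tested across all genes with edgeR 4.0.16 (R 4.3.3; trimmed mean of M-values, filterByExpr, which removed 0 genes, and the quasi-likelihood F test with Benjamini-Hochberg adjustment, threshold 0.05), and the procedure was tested on simulated data. The simulated fold changes were smaller than those of the members, so the simulation does not cover their range. Standard errors are the log2 fold change over the square root of F. Replicates differed beyond sampling noise (chi-square per degree of freedom 39.8 to 537). None of the 15181 identifiers matched the 32873 genes of the RefSeq table for assembly SolTub_3.0, so no sequence is shown and, by the naming rule, only the 2 members with the highest mean TotRNA level are named. The members and all groupings were chosen with earlier results of these data known; the grouping by TotRNA replicate 1 was chosen after the members' values were seen.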

Additional observations from a re-analysis of the deposited data

How the results depend on the processing

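The number of genes that meet the rule depends on its limits: 196 with a ratio of 1/4, 41 with 1/16, 161 with a minimum of 5 CPM, 49 with a minimum of 20 CPM, and 199 with group means in place of the extreme libraries. CPM scaled by the trimmed mean of M-values gave 85 genes and by DESeq2 size factors 84, all of them members; leaving out 1 library gave 88 to 139. With members kept as chosen, 96 were called lower under each alternative fit of the full set of libraries, and 95 to 96 with 1 library left out (95 without MitoRNA replicate 2). Their median log2 fold change was -5.26 with library size as the sole scaling and -5.29 to -4.89 with 1 library left out. Over all listed genes, the count called lower was 1994, 2602 with DESeq2 (32 adjusted p-values not given) and 1024 to 2007 with 1 library left out, with 1031 without MitoRNA replicate 2 and 1024 without TotRNA replicate 2; the cause was not tested. Without replicate 1 of both groups, a choice made after seeing the data, 115 genes met the rule (92 of them members), all 96 members were called lower and 2439 genes in all. The filter on low counts removed 0 genes, so leaving it out tested nothing.

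Deviations from group means correlated at 0.44, 0.44 and -0.05 between libraries numbered 1, 2 and 3, and MitoRNA replicate 3 correlated best, at 0.41, with TotRNA replicate 2, so samples were not treated as paired by number. The replicate block called 96 members and 2113 genes lower, and the members' median log2 fold change was -5.02. Depth limits the members at MitoRNA: 15 had fewer than 10 pooled counts there.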
